A study of Mus musculus with 6 samples.

Results

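The synaptic vesicle release machinery was followed here as a list of 48 genes, which code for the proteins that dock, prime, fuse and retrieve the vesicles of a nerve terminal. A probe set, the group of spots that reads 1 transcript on the array, belonged to the list when its only gene symbol in the array's annotation was one of the 48. All 48 of them, among 18194 genes with such a probe set, were represented, by 122 of the 45101 probe sets. Testing required a mean signal of 100 or more in at least 1 of the 3 groups, which kept 104 of the 122, covering 47 genes, among 23262 tested probe sets of the whole array. Probe sets whose names end in _s_at or _x_at, such as Napb 1427470_s_at and Stx1a 1437390_x_at, may also read transcripts of other genes and are less certain. Sv2c, a vesicle glycoprotein gene, had a single probe set with signals between 7.16 and 42.0, and it was not tested. At the border of this filter, Syt1 1438282_at with a highest group mean of 98.7 was left out, and Rims2 1443215_at with 111.5 was the lowest kept.

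The hippocampal RNA came from male Tg2576 mice of strain C57BL/6 as the labels give it, a C57BL/6J background in the study's methods. These mice carry a transgene for the human amyloid precursor protein APP695 with the Swedish mutation, driven by the prion protein promoter, and all groups carried it, so that no group represents mice without the transgene. The first group, Tg-18mo, was 18 months old, received plain drinking water and had a high load of Aβ plaques. Tg-18mo-ACEI mice were of the same age and had taken captopril, a centrally active inhibitor of the angiotensin-converting enzyme (ACE), at 20 mg/kg per day for 6 months. Tg-12mo mice were 12 months old, the age at which the treatment started, were untreated and had a low plaque load. Each group had 2 chips, and the RNA of 4 mice was pooled on each chip, so that p-values measure the spread between chips and not between mice.

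A presynaptic terminal releases transmitter when a vesicle fuses with the plasma membrane at the active zone. SNARE proteins on the vesicle (synaptobrevin, coded by Vamp genes) and on the plasma membrane (syntaxin and Snap25) zip together and pull both membranes into contact, while synaptotagmins sense the calcium that triggers the last step. RIM, Munc13 and the large scaffolds Bassoon and Piccolo hold vesicles ready, synapsins tether the reserve, and the ATPase Nsf with its adaptors takes the spent SNARE complex apart before endocytosis recovers the membrane. In the hippocampus most of these terminals use glutamate, which vesicular transporters load into the vesicles.

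The chips were scaled by the authors to the same trimmed mean of 600, yet they differed in the upper range. The chips of 18 months topped out at signals between 21934 and 25102 and those of 12 months at 39494 and 40190.0, and the mean signal of the 104 tested probe sets of the release genes was 3964 and 4059.9 for Tg-18mo, 4127 and 4039.6 for Tg-18mo-ACEI and 4476 and 4482 for Tg-12mo. The 3′/5′ ratio of β-actin was 1.98 and 1.88, 1.45 and 1.38, and 1.83 and 1.77 in the same order, and 18S ribosomal RNA, read by its 3′ probe set, reached 10219 and 11144 in Tg-18mo against 2000 to 2214 on the other chips. The contrast was smaller on the other 18S probe sets. In the same order of groups, the 5′ one read 1779 and 1821, 959 and 944, and 1578 and 1603. The middle one read 1662 and 1759, 519 and 575, and 894 and 810. The summed signal of 11 tested markers of hippocampal pyramidal and granule neurons lay between 39319 and 40836 on all chips, and that of 10 general neuronal markers was 79085 and 82813, 76937 and 73565, and 88191 and 90754 in that order of groups. None of these markers was at 0. Of the general neuronal markers, 1 was higher and 4 were lower with captopril, and 4 were higher and 3 lower at 12 than at 18 months. Of all 12325 tested genes, 12.6% were higher and 21.7% lower with captopril, and 21.0% and 28.0% at 12 months. Single pyramidal and granule markers differed despite the similar sums. Of these 11, 3 were higher and 3 lower with captopril (log2 differences -0.47 to 1.57). At 12 months 2 were higher and 4 lower (-1.11 to 0.36). The part of these differences in the results on the release genes was not tested, and fewer nerve cells and less RNA per cell cannot be told apart in tissue RNA.

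The first comparison asked what captopril did to these genes in 18 month-old mice. The release genes did not move as a block. Of the 104 probe sets, 25 (24.0%) of 17 genes were higher and 18 (17.3%) of 16 genes were lower in Tg-18mo-ACEI than in Tg-18mo, at an adjusted p under 0.05 (limma, Benjamini-Hochberg over all tested probe sets). In the values that follow, a difference is on the log2 scale and ± gives its standard error in the fit, with n = 2 chips per group. Over the whole array, 15.9% of the tested probe sets passed in the higher direction and 17.7% in the lower. The lower share of the release genes was thus near the background, and the higher share was above it. The release probe sets were, however, brighter than the array. Of the 104, 16 had a mean signal under 500 and 19 one of 8000 or more, against 10631 and 914 of all 23262. The part of brightness in this and the later comparisons with shares of the array was not tested. The members were chosen with earlier results of these data known, so the higher share is a description only. The study had already listed Lin7a 1456656_at and Rph3a 1449961_at as raised by captopril. The largest rises were those of Lin7a 1456656_at, Rph3a 1449961_at, Slc17a6 1418610_at, Pclo 1452423_at, Snap25 1447763_at and Syn2 1449030_at, each at least 2-fold. At the 2-fold threshold with an unadjusted p of 0.01 or less, 6 of the 104 were higher (5.77%, against 3.03% of the array) and 0 were lower (1.06% of the array). No fall was that large, and 18 fell with an adjusted p under 0.05 in limma, 24 with an unadjusted p under 0.05. The median log2 difference was -0.01 against -0.04 over all tested probe sets. With each gene represented by its brightest tested probe set, the one with the highest mean signal over the 6 chips, 7 of 47 genes were higher and 9 lower, where 12.6% and 21.7% of all 12325 genes passed. None of the 6 probe sets with the largest rises was the brightest of its gene. The 18 falls became 10 without Tg-18mo chip 2, 11 without Tg-18mo-ACEI chip 2 and 11 when each chip was divided by its median, and 19 of the 43 calls were lost in at least 1 of the leave-outs. Quantile normalization, which gives all chips the same distribution of signals, ended 1 call and added 5. The split was then 30 higher and 17 lower.

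The second comparison set untreated 12 month-old mice beside untreated 18 month-old ones. More of the release probe sets differed by age than by captopril, and they differed in both directions. Both statements also held for the probe sets of the whole array. At 12 months 35 probe sets (33.7%, against 21.5% of the array) were higher and 38 (36.5%, against 25.9%) were lower than at 18 months. The highest at 12 months were Snap25 1447763_at, Lin7a 1456656_at, Rph3a 1449961_at and Syt1 1431191_a_at. The lowest were Slc17a7, Syngr3 1448216_at, Unc13a and Syt7 1439633_at. These 4 on either side passed 2-fold (3.85% each, against 1.78% and 2.57% of the array). The median log2 difference was 0.02 against -0.05 over the array, and the median size of a difference regardless of sign was 0.37 against 0.29. By the brightest probe set, 18 genes were higher and 16 lower of 47, beside 21.0% and 28.0% of all genes. Leaving out 1 chip in turn ended 13 of the 73 calls, and quantile normalization ended 13, turned the sign of 1 and added 8.

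The third comparison placed captopril-treated mice of 18 months beside untreated mice of 12 months. It shares its chips with the first and the second comparison. Here 39 probe sets (37.5%, against 22.3% of the array) were higher with captopril and 31 (29.8%, against 17.7%) were lower. At 2-fold, 4 were higher (3.85%, against 2.05%), those of Pclo 1452423_at, Doc2b 1420666_at, Slc17a7 and Vamp2 1420833_at. None passed in the lower direction (1.24% of the array), where limma gave 31 at the adjusted p and 33 at an unadjusted p under 0.05. The median log2 difference was 0.08 against 0.05 over the array. By the brightest probe set, 12 of 47 genes were higher and 19 lower, against 20.1% and 20.6%. After quantile normalization, which ended 18 calls, turned 5 and added 12, the split was 50 higher and 14 lower, and the 31 lower calls became 19 without Tg-18mo-ACEI chip 2.

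**Figure D1:**
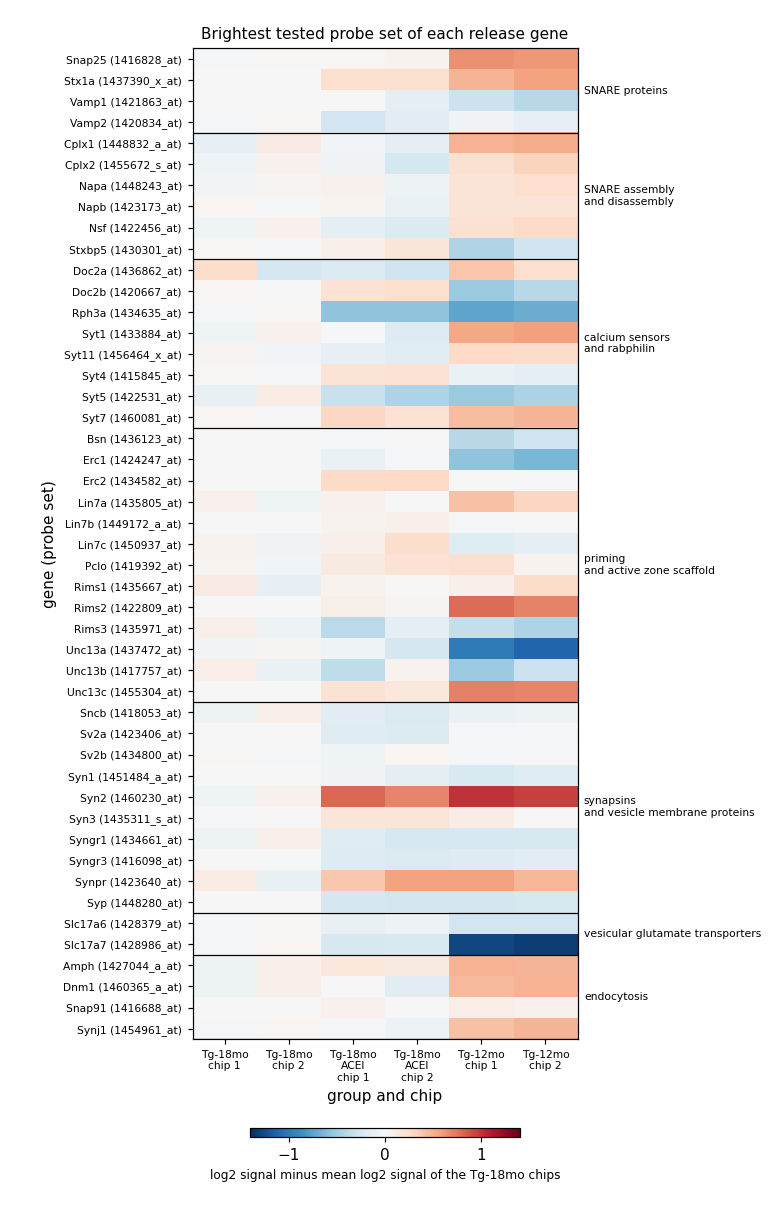
Heat map of the brightest tested probe set of each of the 47 release genes (rows, grouped by role) on the 6 chips (columns). Colour gives log2 signal minus the mean log2 signal of the 2 Tg-18mo chips, red for higher and blue for lower. The chips of a group resemble each other, the Tg-12mo columns hold the strongest colours in both directions, and Syn2 is the darkest red and Slc17a7 the darkest blue.

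Among the SNARE proteins, Snap25 changed most. Snap25 sits in the plasma membrane and supplies part of the helical bundle. Its probe set 1447763_at had signals of 474 and 462 for Tg-18mo, 1107 and 1120.1 for Tg-18mo-ACEI and 2253 and 2116 for Tg-12mo. Each group stood apart from the others, with Tg-18mo lowest and Tg-12mo highest. It was higher with captopril than without (log2 difference 1.25 ± 0.06, adjusted p = 5.3e-06) and higher again at 12 months (2.22 ± 0.06, adjusted p = 8.6e-07), and lower with captopril than at 12 months (-0.97). The second probe set of Snap25, 1416828_at, read 19064 and 19755 without captopril, 19819 and 20144 with captopril, and 30338 and 29504 at 12 months. With captopril it did not pass (0.04, adjusted p = 0.50), and at 12 months its log2 difference of 0.62 became -0.06 after quantile normalization, as that between captopril and 12 months went from -0.58 to 0.20.

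Stx1a, the plasma membrane syntaxin, gave opposite answers on its probe sets. On 1437390_x_at the signals were 3681 and 3659 in untreated and 4278 and 4278 in treated 18 month-old mice, and 5121 and 5438 in 12 month-old mice. They rose with captopril (log2 difference 0.22 ± 0.05, adjusted p = 0.0085) and were higher still at 12 months (0.52 ± 0.05, adjusted p = 6.7e-05). On 1448366_at they were 2022 and 1838 in untreated and 1637 and 1592 in treated 18 month-old mice, and 1300.3 and 1392 in 12 month-old mice. Here the order of the groups was the reverse, with a fall of 0.26 with captopril (adjusted p = 0.019) and a difference of -0.52 at 12 months (adjusted p = 0.00037), and no chips of different groups overlapped on either probe set. Between captopril and 12 months the log2 differences were -0.30 and 0.26, the latter 0.17 and no longer passing after quantile normalization. The captopril call of 1437390_x_at was lost without Tg-18mo chip 2 (0.22 to 0.23 over the 6 leave-outs), and that of 1448366_at without Tg-18mo chip 1 or without either Tg-18mo-ACEI chip (-0.33 to -0.19). The difference of 1448366_at from 12 months was lost without Tg-18mo-ACEI chip 1 or Tg-12mo chip 1 (0.21 to 0.31).

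Vamp2 and Vamp1 code for the synaptobrevins of the vesicle membrane. Vamp2 1420834_at had signals of 11806 and 12046 for Tg-18mo, 9912 and 10730.0 for Tg-18mo-ACEI and 11521 and 10991 for Tg-12mo. It fell with captopril by 0.21 on the log2 scale (adjusted p = 0.016), a call lost after quantile normalization (-0.17) and without either Tg-18mo chip or Tg-18mo-ACEI chip 1 (-0.27 to -0.15). Its difference of -0.08 at 12 months did not pass (adjusted p = 0.22, but -0.41 and passing after quantile normalization), nor did that of captopril from 12 months (-0.13, or 0.24 after quantile normalization, which passed). Vamp2 1420833_at, in contrast, had 1457 and 1259 without captopril, 1516 and 1367 with captopril, and 741 and 665 at 12 months. Both 12-month chips lay far below the other 4, with log2 differences of -0.95 ± 0.09, adjusted p = 9.8e-05 against Tg-18mo and 1.04 for captopril against 12 months. Vamp1 1421863_at was lower at 12 months by 0.35 (adjusted p = 0.0018), and the other Vamp1 probe set, 1421862_a_at, ranged from 42.1 to 166 and passed in no comparison.

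The proteins that assemble and take apart the SNARE complex showed no captopril call on the brightest probe set of any of their 6 genes, but 4 of the 5 probe sets of Napb rose. By the brightest probe set, 12.6% of all genes were higher and 21.7% lower. Napb codes for β-SNAP, an adaptor of Nsf. Napb 1427470_s_at had signals of 3321 and 3184 for Tg-18mo, 6022 and 5713 for Tg-18mo-ACEI and 4117 and 3993 for Tg-12mo, and 1452444_at had 2268 and 2131 in untreated and 3828 and 4122 in treated 18 month-old mice, and 2865 and 2609.9 in 12 month-old mice. On both, the captopril chips were above all others and the 12-month chips lay between. The log2 differences with captopril were 0.85 ± 0.05, adjusted p = 1.1e-05, and 0.85 ± 0.07, adjusted p = 4.6e-05, and both remained higher than at 12 months (0.53 and 0.54). Napb 1450888_at also rose, from 7121 and 7527 to 9576 and 9733 (0.40), as did 1423172_at, from 8052 and 7993 to 9230.0 and 8898 (0.18), the latter call being lost without either Tg-18mo chip or Tg-18mo-ACEI chip 1 (0.15 to 0.20). At 12 months they stood at 10312 and 9883 and at 10304 and 10156. The brightest Napb probe set, 1423173_at, had 10528 and 10081 without captopril, 10614 and 9634 with captopril, and 11674 and 11637 at 12 months, with overlapping chips and a captopril difference of -0.03 (adjusted p = 0.74). All 5 were higher at 12 than at 18 months, by 0.18 to 0.46, but 1423173_at lost its call without any 1 of the 4 chips and was -0.13 after quantile normalization. Against 12 months, the 3 brightest were -0.20, -0.17 and -0.06, and after quantile normalization 0.17, 0.14 and 0.26. The first of these calls was lost without Tg-18mo-ACEI chip 2 or either Tg-12mo chip (-0.27 to -0.13), and the second without Tg-18mo-ACEI chip 2 or Tg-12mo chip 1 (-0.20 to -0.15).

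Complexins clamp the partly zipped SNARE complex and promote its fast fusion. Cplx1 1448832_a_at had 11197 and 13082 for Tg-18mo, 11784 and 11073 for Tg-18mo-ACEI and 16954 and 17289 for Tg-12mo, and Cplx1 1417746_at had 7885 and 8764 without captopril, 8972 and 8674 with captopril, and 12034 and 12674 at 12 months. Neither passed with captopril as deposited, though the second did after quantile normalization (0.16). Both were higher at 12 months (log2 differences 0.50 and 0.57, the latter 0.29 after quantile normalization). The first was 0.05 after quantile normalization and no longer passed. Cplx1 1417747_at had 2840.0 and 3064 in untreated and 2615 and 2522 in treated 18 month-old mice, and 1976 and 2023 in 12 month-old mice. It went the other way, falling by 0.20 with captopril (adjusted p = 0.025, lost without Tg-18mo chip 2 or either Tg-18mo-ACEI chip, -0.25 to -0.15) and lying at -0.56 at 12 months (adjusted p = 9.9e-05). For captopril against 12 months, the 3 gave -0.58, -0.49 and 0.36, of which the first and the second did not pass after quantile normalization (-0.07 and -0.13).

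Cplx2 repeated this division. Cplx2 1455672_s_at read 9699 and 10609 for Tg-18mo, 9818 and 8553 for Tg-18mo-ACEI and 11741 and 12584 for Tg-12mo, 1436383_at read 6692 and 6566 without captopril, 5492 and 5589.6 with captopril, and 5407 and 5379.8 at 12 months, and 1421477_at read 6048 and 6191 in untreated and 5843 and 5549 in treated 18 month-old mice, and 4646 and 4994 in 12 month-old mice. At 12 months the first was higher (0.26, but -0.06 after quantile normalization and not past the threshold without Tg-18mo chip 1 or Tg-12mo chip 2, 0.20 to 0.33) and the other two were lower (-0.30 and -0.35). With captopril only 1436383_at of the 3 passed (-0.26 ± 0.04, adjusted p = 0.0025). Between captopril and 12 months they gave -0.41 (-0.05 and not passing after quantile normalization), 0.04, which passed only after quantile normalization (0.14), and 0.24, which was lost without Tg-18mo-ACEI chip 1 (0.19 to 0.29).

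Nsf, the ATPase, and Napa, which codes for α-SNAP, passed with captopril on none of their tested probe sets with the deposited scaling. After quantile normalization Nsf 1422455_s_at passed with captopril (0.20) and at 12 months (-0.18). Nsf 1422456_at had 14052 and 15332 for Tg-18mo, 13419 and 12854 for Tg-18mo-ACEI and 17022 and 17647 for Tg-12mo, and Nsf 1422455_s_at had 6643 and 6919 without captopril, 7862 and 7258 with captopril, and 6679.7 and 6468 at 12 months. The former was higher at 12 months (0.24), a direction that turned to -0.24 after quantile normalization and a call that was lost without Tg-18mo chip 1 or Tg-12mo chip 2 (0.18 to 0.30). Against 12 months the captopril chips were lower on the former (-0.40, turned to 0.16 after quantile normalization) and higher on the latter (0.20, lost without Tg-18mo-ACEI chip 1 or Tg-12mo chip 2, 0.14 to 0.26). Napa 1448243_at had 5684 and 5961 in untreated and 6047 and 5551 in treated 18 month-old mice, and 6609 and 6836 in 12 month-old mice, and Napa 1416192_at had 1310.1 and 1357 for Tg-18mo, 1377 and 1414 for Tg-18mo-ACEI and 975 and 1034 for Tg-12mo. The 12-month chips were the highest 2 on the former (0.21 against Tg-18mo) and the lowest 2 on the latter (-0.41 ± 0.06, adjusted p = 0.00085), and captopril against 12 months gave -0.21 and 0.48. The calls of 1448243_at did not hold after quantile normalization (0.07 and -0.06), nor without Tg-12mo chip 2, nor, in turn, without Tg-18mo chip 1 (0.17 to 0.24) and Tg-18mo-ACEI chip 2 (-0.28 to -0.15). Stxbp5 codes for tomosyn, a syntaxin-binding protein that holds back SNARE assembly. Its probe set 1435398_at had 1141 and 1228 without captopril, 1247 and 1267 with captopril, and 709 and 700.4 at 12 months, so that both 12-month chips were below all chips of 18 months (-0.75 ± 0.07, adjusted p = 5.6e-05), treated or not (0.84 for captopril against 12 months). Stxbp5 1430301_at had 1545 and 1489 in untreated and 1599 and 1703 in treated 18 month-old mice, and 1136 and 1251 in 12 month-old mice and Stxbp5 1453021_at had 674 and 636 for Tg-18mo, 609.9 and 604 for Tg-18mo-ACEI and 758 and 697 for Tg-12mo, with 12-month differences of -0.35, which passed, and 0.15, which passed only after quantile normalization (0.26). Captopril against 12 months gave 0.47 and -0.26, the latter lost without either Tg-18mo-ACEI chip or Tg-12mo chip 1 (-0.32 to -0.20).

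With captopril, Rph3a held the widest division of the list. It codes for rabphilin, a protein with calcium-binding C2 domains that is recruited to vesicles by Rab3. Rph3a 1449961_at had signals of 400.1 and 414 for Tg-18mo, 1532 and 1508 for Tg-18mo-ACEI and 912 and 913 for Tg-12mo. Its chips did not overlap between groups, and the captopril chips were the highest (1.90 ± 0.07, adjusted p = 9.0e-07 against Tg-18mo, 1.16 ± 0.07, adjusted p = 1.1e-05 for 12 months against Tg-18mo). Rph3a 1434635_at had 7384 and 7525 without captopril, 5032 and 5048 with captopril, and 4462 and 4612 at 12 months, again with no overlap but with Tg-18mo highest. It fell by 0.56 with captopril (SE 0.04, adjusted p = 4.9e-05) and was lower at 12 months (-0.72 ± 0.04, adjusted p = 1.4e-05). Captopril was above 12 months on both (0.74 and 0.15), the smaller difference being lost without either Tg-18mo-ACEI chip or Tg-12mo chip 1 (0.13 to 0.18).

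Syt1 is the fast calcium sensor of release. Syt1 1433884_at had 14206 and 15451 for Tg-18mo, 14766 and 13098 for Tg-18mo-ACEI and 21507 and 22121 for Tg-12mo, 1421990_at had 1951 and 2019 without captopril, 2534 and 2617 with captopril, and 2534 and 2582 at 12 months, and 1431191_a_at had 755 and 724 in untreated and 1260.3 and 1196 in treated 18 month-old mice, and 1627 and 1373 in 12 month-old mice. The captopril chips were higher on 1421990_at and 1431191_a_at (0.38, adjusted p = 0.00086, and 0.73 ± 0.09, adjusted p = 0.00046) and overlapped the untreated ones on 1433884_at (-0.09, adjusted p = 0.32). At 12 months all 3 were higher (0.56, 0.37 and 1.02 ± 0.09, adjusted p = 5.0e-05), although the difference of 1433884_at was -0.01 after quantile normalization. Captopril against 12 months gave -0.65 on 1433884_at, 0.01 on 1421990_at, which did not pass, and -0.28 on 1431191_a_at, the last being lost without either Tg-18mo-ACEI chip or Tg-12mo chip 1 (-0.41 to -0.16). On 1433884_at this call, too, did not hold after quantile normalization, and its difference was then near 0.

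Syt7, a slower sensor with high calcium affinity, was read by 4 tested probe sets. Syt7 1460081_at had 4204 and 4069.7 for Tg-18mo, 5052 and 4755 for Tg-18mo-ACEI and 5586 and 5759.5 for Tg-12mo, and Syt7 1441927_at had 1281 and 1476 without captopril, 1816 and 1568 with captopril, and 2532 and 2582 at 12 months. Both rose with captopril (0.24 and 0.30, adjusted p = 0.0066 and 0.032) and were highest at 12 months (0.46 and 0.90 ± 0.09, adjusted p = 9.3e-05). Syt7 1439633_at had 2502 and 2599.9 in untreated and 1976 and 1968 in treated 18 month-old mice, and 1332 and 1209 in 12 month-old mice, in the reverse order, with a fall of 0.37 with captopril (adjusted p = 0.0026) and a 12-month difference of -1.01 ± 0.06, adjusted p = 1.4e-05. Syt7 1423012_at, close to the filter with 80.5 and 71.7 for Tg-18mo, 113 and 119.8 for Tg-18mo-ACEI and 88.7 and 87.0 for Tg-12mo, passed in no comparison. Captopril against 12 months gave -0.21, -0.60 and 0.64 on the 3 others. The captopril calls of 1460081_at and 1441927_at were lost without Tg-18mo chip 2 (0.20 to 0.29) and without Tg-18mo chip 1 or Tg-18mo-ACEI chip 1 (0.19 to 0.40), respectively, and 1460081_at against 12 months was lost after quantile normalization (-0.12) and without Tg-18mo-ACEI chip 2 or Tg-12mo chip 2 (-0.25 to -0.17).

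Syt11, a synaptotagmin that does not bind calcium, had 5 tested probe sets. Syt11 1456464_x_at read 11996 and 11438 for Tg-18mo, 10801 and 10568 for Tg-18mo-ACEI and 14258 and 13975 for Tg-12mo, and 1455176_a_at read 9608 and 9637 without captopril, 9366 and 9577 with captopril, and 12256 and 12119 at 12 months. Neither passed with captopril, and both were higher at 12 months (0.27 and 0.34, which became -0.11 and 0.03 after quantile normalization). Syt11 1429314_at read 8370.3 and 8909.9 in untreated and 7226 and 7161 in treated 18 month-old mice, and 7252 and 7479 in 12 month-old mice, 1429315_at read 5471 and 5586 for Tg-18mo, 5387 and 5178 for Tg-18mo-ACEI and 4748 and 4923 for Tg-12mo, and 1449264_at read 4753 and 4875 without captopril, 3968 and 3942 with captopril, and 3109.6 and 3234 at 12 months. These 3 were lower at 12 months (-0.23, -0.19 and -0.60 ± 0.05, adjusted p = 3.2e-05), and 2 of them also fell with captopril, 1429314_at by 0.26 and 1449264_at by 0.28 (adjusted p = 0.0040 and 0.0024). The 12-month call of 1429315_at was lost without Tg-18mo chip 2 or Tg-12mo chip 1 (-0.22 to -0.17). Captopril against 12 months was lower on the first pair (-0.40 and -0.36, or 0.03 and 0.00 after quantile normalization) and higher on 1449264_at (0.32), while 1429314_at (-0.03, or 0.17 after quantile normalization) and 1429315_at (0.13) did not pass with the deposited scaling but did after quantile normalization.

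Syt4, another synaptotagmin of vesicles and dense-core granules, rose with captopril. Syt4 1415844_at had 1222 and 1048 for Tg-18mo, 1738 and 2190.3 for Tg-18mo-ACEI and 1324 and 1122 for Tg-12mo, so that both captopril chips lay above the other 4 (0.79 ± 0.13, adjusted p = 0.0022), while 12 and 18 months overlapped (0.11). Against 12 months its difference was 0.68. Its other probe set, 1415845_at, rose by 0.20, a call lost without Tg-18mo chip 2 or either Tg-18mo-ACEI chip (0.17 to 0.23). Syt5 1422531_at had 1566 and 1816 without captopril, 1356 and 1250.1 with captopril, and 1180.4 and 1239 at 12 months. It fell with captopril by 0.37 (adjusted p = 0.0093, lost without chip 2 of either group, -0.48 to -0.27) and was lower at 12 months (-0.48).

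Doc2a and Doc2b are C2-domain proteins linked to spontaneous release. Doc2b 1420666_at had 862 and 691 for Tg-18mo, 867 and 926 for Tg-18mo-ACEI and 389.9 and 385 for Tg-12mo. Both 12-month chips were lowest (-0.995 ± 0.11, adjusted p = 0.00016), and captopril exceeded 12 months by 1.21 ± 0.11, adjusted p = 8.5e-05 but did not pass against Tg-18mo (0.22). Doc2b 1420667_at moved the same way by age (-0.46) and against 12 months (0.67), and its rise of 0.21 with captopril was lost without any 1 of the 4 chips (0.18 to 0.24). Doc2a 1436862_at had 787 and 561 in untreated and 576 and 549 in treated 18 month-old mice, and 873 and 778 in 12 month-old mice. Captopril was lower than 12 months (-0.55 ± 0.15, adjusted p = 0.017, lost without either Tg-18mo-ACEI chip or Tg-12mo chip 1, -0.63 to -0.47), and the other comparisons had overlapping chips and did not pass with the deposited scaling. After quantile normalization the 12-month difference of Doc2a was 0.41 and passed.

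**Figure D2:**
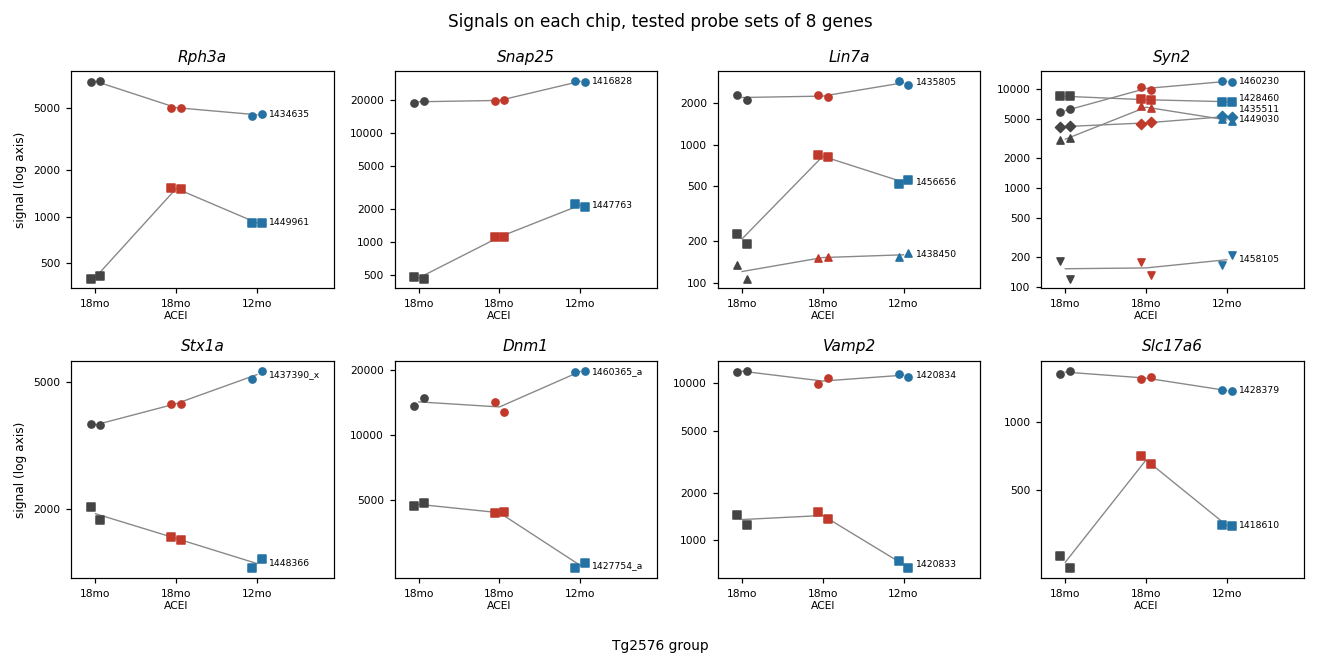
Signals of all tested probe sets of 8 release genes on each chip, on a log axis. Symbols are chips, coloured by group (grey Tg-18mo, red Tg-18mo-ACEI, blue Tg-12mo), shapes and number labels tell the probe sets of a gene apart, and lines join group means. In Rph3a, Stx1a and Dnm1 the lines of a gene's probe sets run in opposite directions between some groups. In Snap25 and Slc17a6 the lower line moves by more than the upper, and in Lin7a the middle line moves most.

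Of the 13 genes for priming factors and active zone scaffolds, only Erc2 changed with captopril on its brightest probe set, whereas other probe sets of Lin7a, Pclo and Rims1 rose. By the brightest probe set, 12.6% of all genes were higher and 21.7% lower. Lin7a codes for an adaptor of the presynaptic scaffold that binds Cask. Lin7a 1456656_at had the largest captopril difference of the list, with 225 and 193 for Tg-18mo, 844 and 811 for Tg-18mo-ACEI and 519.6 and 554 for Tg-12mo. The 3 groups did not overlap (1.99 ± 0.11, adjusted p = 6.4e-06 with captopril, 1.37 ± 0.11, adjusted p = 3.3e-05 at 12 months, 0.62 for captopril against 12 months). Lin7a 1435805_at had 2288 and 2115 without captopril, 2300.1 and 2206 with captopril, and 2914 and 2717 at 12 months. It did not pass with captopril (0.03) and was higher at 12 months (0.36), so that captopril was lower than 12 months (-0.32 ± 0.06, adjusted p = 0.0037). Lin7a 1438450_at had 135 and 108 in untreated and 152 and 154 in treated 18 month-old mice, and 155 and 166 in 12 month-old mice and passed in no comparison.

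Pclo codes for Piccolo, a giant scaffold of the active zone. Pclo 1452423_at had 277 and 209 for Tg-18mo, 624 and 572 for Tg-18mo-ACEI and 249.5 and 234 for Tg-12mo. Captopril chips were the highest, 12 and 18 months overlapped (0.00), and the log2 difference was 1.31 ± 0.15, adjusted p = 0.00037 against Tg-18mo and 1.31 ± 0.15, adjusted p = 0.00026 against Tg-12mo. Pclo 1455373_at rose as well, from 633 and 536 to 993 and 769 (0.58, lost without Tg-18mo chip 2 or Tg-18mo-ACEI chip 1, 0.40 to 0.77). The brightest Pclo probe set, 1419392_at, had 4612 and 4375 without captopril, 4919 and 5187 with captopril, and 5229.6 and 4635 at 12 months and passed in no comparison, with 0.17 for captopril. Bsn codes for Bassoon, the partner scaffold of Piccolo. Bsn 1436123_at had 4679.6 and 4718 in untreated and 4627 and 4719.6 in treated 18 month-old mice, and 3586 and 3866 in 12 month-old mice, which was lower at 12 months (-0.34 ± 0.05, adjusted p = 0.00089) and did not differ past the threshold with captopril (-0.01). Bsn 1450467_at passed only at 12 months (-0.63), and this was lost after quantile normalization (-0.56) and without each chip but Tg-12mo chip 1 (-0.94 to -0.32).

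Rims1 and Rims2 code for RIM proteins, which link vesicles with calcium channels. Rims1 1438305_at had 2014 and 1952 for Tg-18mo, 3315 and 3495 for Tg-18mo-ACEI and 2941 and 2581 for Tg-12mo, with captopril highest and no overlap (0.78 ± 0.07, adjusted p = 9.6e-05 with captopril, 0.47 at 12 months, and 0.31 between them, the last lost without Tg-18mo-ACEI chip 2, 0.21 to 0.40). Rims1 1435667_at had 5012 and 4275 without captopril, 4782 and 4660.3 with captopril, and 4868 and 5533 at 12 months, and none of its differences passed. Rims2 1422809_at had 1622 and 1632 in untreated and 1719 and 1669.6 in treated 18 month-old mice, and 2794 and 2631 in 12 month-old mice, and the 12-month chips stood above the rest (0.74 ± 0.05, adjusted p = 2.7e-05 against Tg-18mo, -0.68 for captopril against 12 months). Rims2 1436470_at had 1491 and 1425 for Tg-18mo, 1826 and 1657 for Tg-18mo-ACEI and 1457 and 1522 for Tg-12mo, with a rise of 0.26 with captopril (adjusted p = 0.019, lost without Tg-18mo chip 2 or Tg-18mo-ACEI chip 1, 0.19 to 0.33) and a difference of 0.22 from 12 months, lost after quantile normalization (0.14) and without Tg-18mo-ACEI chip 1 or Tg-12mo chip 1 (0.15 to 0.29). Rims2 1450761_s_at passed in no comparison with the deposited scaling, with 1151 and 1006 without captopril, 1068 and 985 with captopril, and 1180.5 and 1217 at 12 months. After quantile normalization it passed at 12 months (0.24) and for captopril against 12 months (-0.32). Rims2 1443215_at had 62.8 and 73.2 in untreated and 65.5 and 46.3 in treated 18 month-old mice, and 99.9 and 123 in 12 month-old mice. It reached the filter only through Tg-12mo, the group where it was highest, so that its difference of -1.01 between captopril and 12 months (-1.26 to -0.76 with 1 chip left out) is given as a description. Rims3 1435971_at was lower at 12 months by 0.38 (adjusted p = 0.013), lost without Tg-18mo chip 1 or Tg-12mo chip 2 (-0.45 to -0.31).

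Munc13 proteins, coded by the Unc13 genes, open syntaxin and make vesicles ready to fuse. Unc13a 1437472_at had 1452 and 1534 for Tg-18mo, 1432 and 1265 for Tg-18mo-ACEI and 751 and 690.2 for Tg-12mo. Both 12-month chips were below the other 4 (-1.05 ± 0.08, adjusted p = 3.1e-05), captopril exceeded 12 months by 0.90 ± 0.08, adjusted p = 7.9e-05, and captopril did not pass against Tg-18mo (-0.15, adjusted p = 0.19). Unc13c 1455304_at had 708 and 703 without captopril, 809 and 780.5 with captopril, and 1148 and 1129 at 12 months, with the 12-month chips highest (0.69 ± 0.07, adjusted p = 7.9e-05). Unc13c 1437319_at had 246 and 269 in untreated and 229.8 and 213 in treated 18 month-old mice, and 361 and 283 in 12 month-old mice, and captopril was lower than 12 months on both (-0.52 and -0.53), the latter being lost without either Tg-18mo-ACEI chip or Tg-12mo chip 1 (-0.71 to -0.36). Unc13b 1417757_at was lower at 12 months (-0.41), which was lost after quantile normalization (-0.30) and without either Tg-18mo chip or Tg-12mo chip 1 (-0.52 to -0.30).

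Erc1 and Erc2 code for ELKS proteins, which bind RIM and Bassoon. Erc1 1451279_at had 455 and 468 for Tg-18mo, 377 and 373 for Tg-18mo-ACEI and 277 and 268 for Tg-12mo, the groups being ordered with Tg-18mo highest (-0.30 ± 0.10, adjusted p = 0.048 with captopril, lost without any 1 of the 4 chips and with the replicate block, -0.32 to -0.28, and -0.76 ± 0.10, adjusted p = 0.00042 at 12 months). Erc1 1424247_at was lower at 12 months too (-0.60). Erc2 1434582_at read 5162 and 5235 in Tg-18mo and 6267 and 6326 with captopril, a rise of 0.28 (adjusted p = 0.0017), and 12 months overlapped 18 months (5205 and 5192). Lin7b 1418683_at had 2168 and 2114 without captopril, 1633 and 1578 with captopril, and 1682 and 1641 at 12 months. Tg-18mo was highest (-0.42 ± 0.05, adjusted p = 0.00068 with captopril, -0.37 at 12 months), while the brightest Lin7b probe set, 1449172_a_at, passed in no comparison (0.06 with captopril). The further probe sets of Lin7b and the 4 of Lin7c ranged from -0.33 to 0.53 with captopril, of which Lin7c 1418898_at passed (adjusted p = 0.039, lost without Tg-18mo chip 2 or either Tg-18mo-ACEI chip, 0.35 to 0.70). Lin7c 1449262_s_at passed with captopril only after quantile normalization (0.47).

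Synapsins coat vesicles and tether them to each other and to actin. Syn2 changed on several of its 5 tested probe sets. Syn2 1460230_at had 5814 and 6292 for Tg-18mo, 10571 and 9747 for Tg-18mo-ACEI and 12185 and 11777 for Tg-12mo, and Syn2 1449030_at had 3049.7 and 3173 without captopril, 6713 and 6413 with captopril, and 4965 and 4772 at 12 months. Tg-18mo was lowest on both, with rises of 0.75 ± 0.06, adjusted p = 5.0e-05, and 1.08 ± 0.05, adjusted p = 3.1e-06 with captopril, and 0.99 ± 0.06, adjusted p = 1.3e-05, and 0.65 ± 0.05, adjusted p = 3.2e-05 at 12 months. Against 12 months captopril was lower on the first (-0.24, but 0.14 after quantile normalization and lost without Tg-18mo-ACEI chip 2 or Tg-12mo chip 1, -0.30 to -0.18) and higher on the second (0.43). Syn2 1428460_at had 8437 and 8472 in untreated and 7886 and 7735 in treated 18 month-old mice, and 7490.0 and 7421 in 12 month-old mice, in the opposite order (-0.11 with captopril, not passing, and -0.18 at 12 months, adjusted p = 0.0075). Syn2 1435511_at had 4167 and 4187 for Tg-18mo, 4469 and 4627 for Tg-18mo-ACEI and 5298 and 5275 for Tg-12mo, with a 12-month difference of 0.34 (adjusted p = 0.00040) and -0.22 for captopril against 12 months. Its captopril difference of 0.12 passed only after quantile normalization (0.13). Syn2 1458105_at had 182 and 121 without captopril, 179 and 130.0 with captopril, and 167 and 207 at 12 months, and its chips overlapped throughout. Syn1 1451484_a_at had 8618 and 8727 in untreated and 8408 and 7967 in treated 18 month-old mice, and 7454 and 7720.2 in 12 month-old mice. It did not pass with captopril (-0.08) and was lower at 12 months (-0.19, adjusted p = 0.0098, lost without Tg-18mo chip 2 or Tg-12mo chip 1, -0.22 to -0.17). Of Syn3, 1435310_at was lower at 12 months (-0.68, adjusted p = 0.0040) and 1435311_s_at passed in no comparison.

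The tetraspan proteins of the vesicle membrane fell or rose by gene. Syp codes for synaptophysin, an abundant one. Syp 1448280_at had 10553 and 10697 for Tg-18mo, 8976 and 8919.5 for Tg-18mo-ACEI and 8860.0 and 9123 for Tg-12mo. Tg-18mo was highest, with a fall of 0.25 with captopril (SE 0.04, adjusted p = 0.0030) and a difference of -0.24 at 12 months (adjusted p = 0.0020), and captopril and 12 months overlapped (-0.01, but 0.28 after quantile normalization, which passed). Syngr3 codes for synaptogyrin 3. Syngr3 1448216_at had 1360.1 and 1532 without captopril, 939 and 862 with captopril, and 743 and 636 at 12 months, and its chips did not overlap between groups (-0.68 ± 0.10, adjusted p = 0.0012 with captopril, -1.07 ± 0.10, adjusted p = 6.5e-05 at 12 months). The other Syngr3 probe set, 1416098_at, was lower by -0.19 and -0.17 in the same comparisons, calls lost without either Tg-18mo chip and, in turn, without Tg-18mo-ACEI chip 2 (-0.20 to -0.18) and Tg-12mo chip 1 (-0.19 to -0.15). Syngr1 1434661_at fell with captopril too (-0.20, lost without Tg-18mo chip 2 or either Tg-18mo-ACEI chip, -0.27 to -0.12). Synpr, coding for synaptoporin, known from mossy fibre terminals, went the other way, from 3385 and 2946 to 4101 and 4651 with captopril (0.47 ± 0.08, adjusted p = 0.0034), and stood at 4664 and 4372 at 12 months (0.52).

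Among the SV2 glycoproteins, Sv2b passed in no comparison on either probe set with the deposited scaling, with log2 differences from -0.03 to 0.08. After quantile normalization Sv2b 1434800_at passed, with -0.25 at 12 months and 0.30 for captopril against 12 months. Sv2a fell by 0.18 with captopril (adjusted p = 0.013, lost without either Tg-18mo chip or Tg-18mo-ACEI chip 2, -0.20 to -0.17), and Sncb, coding for β-synuclein, fell by 0.18 (adjusted p = 0.040, lost without Tg-18mo chip 2 or either Tg-18mo-ACEI chip, -0.25 to -0.11). Of the 10 tested genes of synapsins and vesicle membrane proteins, 2 rose and 5 fell with captopril on their brightest probe set, beside 12.6% and 21.7% of all genes.

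The vesicular glutamate transporters fill vesicles with transmitter, and their genes gave some of the largest differences of the list. Slc17a7 (VGLUT1), the form of cortical and hippocampal glutamate neurons, had on 1428986_at 4149.6 and 4315 for Tg-18mo, 3623 and 3646 for Tg-18mo-ACEI and 1748 and 1696 for Tg-12mo. The 12-month chips were far below those of 18 months, the most negative difference of 12 from 18 months in the list (-1.30 ± 0.05, adjusted p = 2.2e-06). Captopril fell below Tg-18mo by 0.22 (adjusted p = 0.0092, lost without Tg-18mo chip 2, -0.25 to -0.19) and exceeded 12 months by 1.08 ± 0.05, adjusted p = 5.2e-06. Slc17a6 (VGLUT2), the form most common in thalamus and brainstem, had on 1418610_at 256 and 227 without captopril, 707 and 652 with captopril, and 352 and 348 at 12 months. The groups did not overlap, and captopril was highest (1.49 ± 0.11, adjusted p = 3.3e-05 against Tg-18mo, 0.95 ± 0.11, adjusted p = 0.00026 against Tg-12mo, and 0.54 for 12 months against Tg-18mo). Its brighter probe set, 1428379_at, had 1626 and 1679.5 in untreated and 1539 and 1572 in treated 18 month-old mice, and 1373 and 1369 in 12 month-old mice. It did not pass with captopril (-0.09, adjusted p = 0.24) and was lower at 12 months (-0.27 ± 0.05, adjusted p = 0.0038), and its difference of 0.18 between captopril and 12 months was lost after quantile normalization (0.09) and without any 1 of the 4 chips (0.17 to 0.20). Beside these values, the 10 tested thalamic markers, which include Slc17a6, had a summed signal of 8232 and 8356 for Tg-18mo, 7215 and 7334 for Tg-18mo-ACEI and 7258 and 7288 for Tg-12mo. Of them 2 were higher and 3 lower with captopril, beside 12.6% and 21.7% of all genes, and none was at 0.

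The 250 bases before the annotated start of both transporter genes are shown because these close relatives hold the most negative difference of 12 from 18 months and one of the largest rises with captopril, Slc17a7 at chr7:45163671-45163920 and the first of the starts listed for Slc17a6 at chr7:51621580-51621829, both on the plus strand of GRCm38.p6 in RefSeq. Capitals mark the GC box, GGGCGG or its reverse complement CCGCCC, and matches may overlap.
Slc17a7: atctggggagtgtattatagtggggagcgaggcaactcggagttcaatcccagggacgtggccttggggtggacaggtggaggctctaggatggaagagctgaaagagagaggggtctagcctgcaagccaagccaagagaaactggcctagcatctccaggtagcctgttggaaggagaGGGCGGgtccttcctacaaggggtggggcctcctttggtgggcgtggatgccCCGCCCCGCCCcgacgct
Slc17a6: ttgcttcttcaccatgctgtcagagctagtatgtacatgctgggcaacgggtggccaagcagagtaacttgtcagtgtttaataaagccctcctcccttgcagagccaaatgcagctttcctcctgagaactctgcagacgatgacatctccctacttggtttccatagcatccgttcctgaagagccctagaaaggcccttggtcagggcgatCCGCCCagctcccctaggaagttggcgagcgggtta
Slc17a7 holds 3 matches in this stretch, of which 2 overlap, and Slc17a6 holds 1. Promoter windows of 300 bases were listed for 38 of the 48 release genes, in 49 windows. The GC box, on either strand, was in 32 of them (65.3%, 31 genes), against 35.7% of 32851 windows of all genes. The cAMP response element TGACGTCA, its own reverse complement, was in 2 (4.08%, Napa and Syn1) against 1.79%. The E-box CACGTG, likewise palindromic, was in 4 (8.16%, Napa, Nsf, Sv2b and Unc13b) against 7.15%. These are matches of letters, with no measurement of binding.

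The endocytosis genes showed no captopril call on the brightest probe set of any of the 4, where 12.6% of all genes were higher and 21.7% lower. Dnm1 codes for dynamin 1, the GTPase that cuts vesicles off the membrane. Dnm1 1427754_a_at had 4673 and 4838 for Tg-18mo, 4315 and 4381 for Tg-18mo-ACEI and 2400.1 and 2554 for Tg-12mo. The 12-month chips were far lower (-0.94 ± 0.05, adjusted p = 8.3e-06), and captopril exceeded them by 0.81 ± 0.05, adjusted p = 2.0e-05. Dnm1 1460365_a_at had 13552 and 14881 without captopril, 14136 and 12801 with captopril, and 19481 and 19878 at 12 months, with the 12-month chips highest (0.47, and -0.55 for captopril against 12 months), both of which turned to -0.08 and 0.08 after quantile normalization. Amph codes for amphiphysin, which recruits dynamin, and Synj1 for the lipid phosphatase synaptojanin. They were higher at 12 months on their brightest probe sets (0.48 and 0.45, adjusted p = 0.00023 and 0.00014), by 0.28 and 0.11 after quantile normalization. With captopril, Amph passed only after quantile normalization (0.18). The further Synj1 probe sets gave 0.23 and 0.12 at 12 months, and only the former passed (lost after quantile normalization, 0.12, and without either Tg-18mo chip or Tg-12mo chip 1, 0.15 to 0.30). Snap91, coding for the clathrin adaptor AP180, passed in no comparison with the deposited scaling, with differences from -0.05 to 0.08. After quantile normalization its signs turned and it passed at 12 months (-0.19) and for captopril against 12 months (0.27).

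Probe sets of the same gene often moved by different amounts. Of the 47 tested genes, 33 had at least 2 tested probe sets. In 3 of these 33 (Rph3a, Stx1a and Syt7) a probe set was higher and another lower with captopril, against 5.15% of 5474 such genes on the array. Between 12 and 18 months this held for 10 (Cplx1, Cplx2, Dnm1, Napa, Rph3a, Slc17a6, Stx1a, Syn2, Syt11 and Syt7), against 14.1%, and between captopril and 12 months for 13 (Cplx1, Cplx2, Dnm1, Lin7a, Napa, Napb, Nsf, Rims2, Stx1a, Stxbp5, Syn2, Syt11 and Syt7), against 8.35%. These shares were 9.09%, 30.3% and 39.4% of the 33. After quantile normalization the counts were 4, 8 and 5 (12.1%, 24.2% and 15.2%), against 5.61%, 12.3% and 6.30% of all such genes. The median span between the highest and the lowest difference of a gene was 0.42 with captopril, 0.71 by age and 0.60 between captopril and 12 months, against 0.35, 0.48 and 0.40 over all genes.

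The unequal change was tested within each chip, as the log2 ratio of a further probe set to the brightest one of its gene, a test added after the data were seen. Of 57 such pairs of the release genes, 15 (26.3%) differed with captopril at an adjusted p under 0.05, against 19.1% of 8797 pairs of all genes. The largest was that of Rph3a, whose ratio of 1449961_at to 1434635_at was higher by 2.47 on the log2 scale (adjusted p = 0.00078), followed by Lin7a 1456656_at with 1.96, Slc17a6 1418610_at with 1.58 and Snap25 1447763_at with 1.21. In each, the ratio of Tg-18mo-ACEI was above that of Tg-18mo on all chips. The count was 7 when any 1 of the 4 chips compared was left out. Between 12 and 18 months 30 pairs (52.6%, against 35.1%) differed, with 14 to 24 when 1 chip was left out, the fewest without Tg-18mo chip 1 (17 without chip 2). Between captopril and 12 months there were 25 (43.9%, against 23.7%), but 1 without Tg-18mo-ACEI chip 1 and 0 without Tg-18mo-ACEI chip 2, where limma gave 26 at an unadjusted p under 0.05. For Dnm1 the ratio of 1427754_a_at to 1460365_a_at differed by 1.36 in this comparison and for Vamp2 that of 1420833_at to 1420834_at by 1.16. The positions of the probes in the transcripts were not used here.

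**Figure D3:**
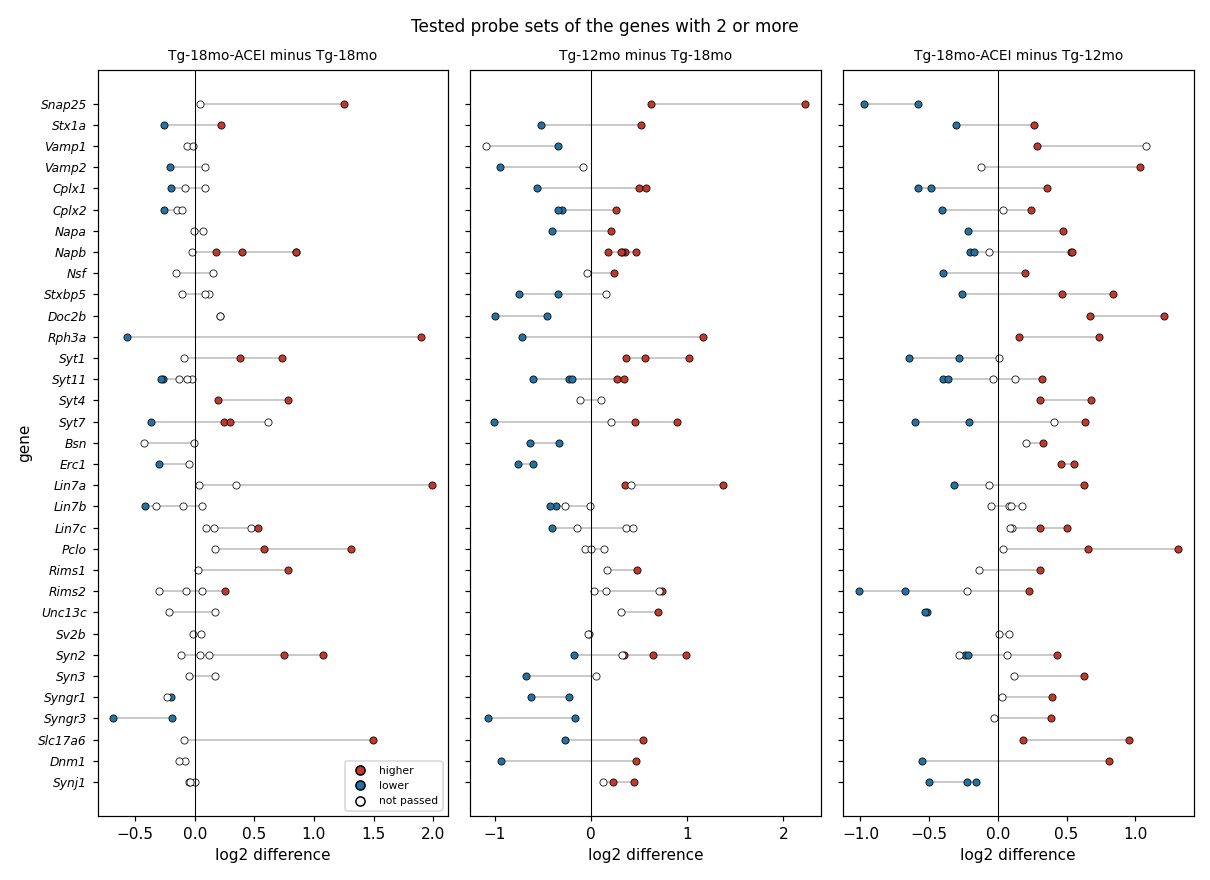
Log2 differences of all tested probe sets of the 33 release genes with at least 2, in the 3 comparisons. Each point is a probe set, red where it was higher and blue where it was lower at an adjusted p under 0.05, white otherwise, and a grey line spans the probe sets of a gene. Rph3a and Lin7a span the widest range with captopril, and Snap25 reaches furthest to the right at 12 months.

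The direction of the brightest probe sets by age depended on the scaling. Of the 19 release probe sets with a mean signal of 8000 or more over the 6 chips, 14 were higher and 2 lower at 12 months, with a median log2 difference of 0.34. The median of all 914 probe sets this bright was 0.42, so that bright probe sets as a whole were higher on the 12-month chips. After quantile normalization the same 19 split into 5 higher and 6 lower, with a median of -0.06, against 0.01 for all 914. Between captopril and 12 months they were 0 higher and 13 lower as deposited (median -0.36, against -0.47 for all 914). After quantile normalization they were 11 higher and 1 lower (median 0.14, against -0.01 for all 914). With captopril against Tg-18mo the split was 3 higher and 2 lower, and 4 and 1 after quantile normalization. For these signal classes, the share of all probe sets that passed was not counted. The 29 probe sets with mean signals from 500 to 2000 had a median of -0.35 at 12 months, with 6 higher and 16 lower. The median of all 7900 probe sets of this class was -0.10. After quantile normalization the 29 had a median of -0.26, with 9 higher and 15 lower, against -0.01 for all 7900. Among the differences named above that kept their sign and call, those at 12 months went to 0.23 for Napb 1450888_at, -0.38 for Syn1 1451484_a_at, -0.36 for Syn2 1428460_at, -0.49 for Syp 1448280_at and -0.41 for Syt11 1429314_at under this scaling, and those of captopril from 12 months to 0.39 for Nsf 1422455_s_at and -0.14 for Syn2 1435511_at.

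**Figure D4:**
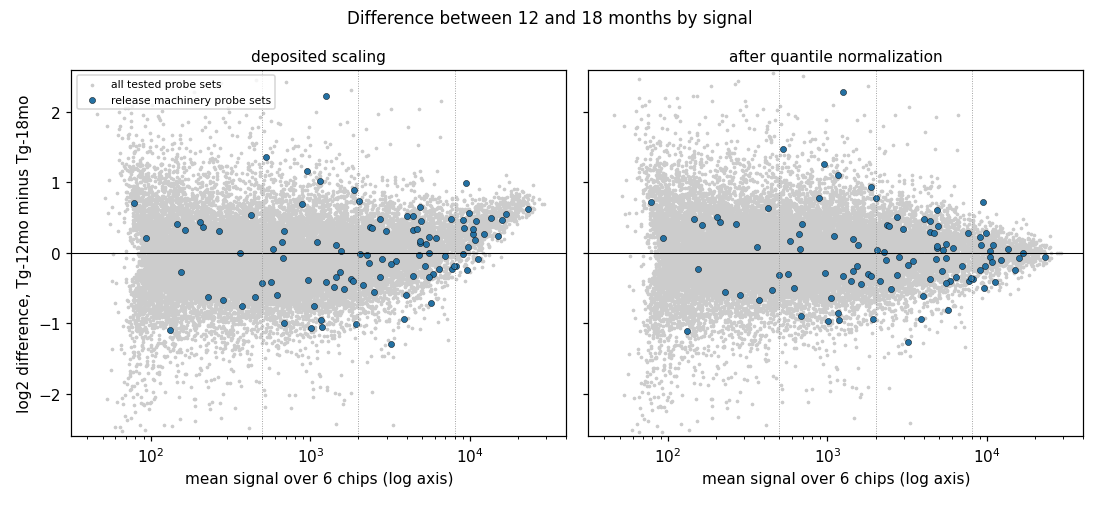
Log2 difference between 12 and 18 months (vertical axis) against the mean signal over 6 chips (horizontal log axis) for all tested probe sets (grey) and those of the release genes (blue), as deposited (left) and after quantile normalization (right). Dotted lines mark signals of 500, 2000 and 8000. At the right edge the deposited signals bend upwards, with a median of 0.42 for all probe sets of 8000 or more, and this bend is absent after quantile normalization.

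Other genes of the vesicle cycle were counted from a list of 78, of which 68 had a tested probe set. By the brightest probe set, 11 were higher and 19 lower with captopril, where 12.6% and 21.7% of all 12325 genes passed. At 12 months 18 were higher and 25 lower, against 21.0% and 28.0% of all genes. For captopril against 12 months 19 were higher and 13 lower, against 20.1% and 20.6%. Their median log2 differences were -0.09, -0.10 and 0.03, against -0.08, -0.06 and 0.01 over all genes. Ap2b1, a subunit of the clathrin adaptor AP-2, had 4714 and 4949.8 for Tg-18mo, 2503 and 2521 for Tg-18mo-ACEI and 1728 and 1873 for Tg-12mo. Its 3 groups did not overlap, with log2 differences of -0.94 with captopril (adjusted p = 1.2e-05) and -1.42 at 12 months (2.4e-06). Snap29, a SNARE of intracellular membranes, had 354 and 377 for Tg-18mo, 326 and 357 for Tg-18mo-ACEI and 152 and 131 for Tg-12mo, and the 12-month chips were lowest (-1.37, adjusted p = 0.00010). Slc32a1, the vesicular transporter of GABA and glycine, had 2958 and 2952 for Tg-18mo, 2202 and 1975 for Tg-18mo-ACEI and 1293 and 1434 for Tg-12mo, lower at 12 months by 1.12 on the log2 scale (adjusted p = 1.6e-05). Stxbp5l, a tomosyn relative of Stxbp5, had 2148 and 2207 for Tg-18mo, 3444 and 3266 for Tg-18mo-ACEI and 3211 and 3410.5 for Tg-12mo, and was higher with captopril (0.62, adjusted p = 9.0e-05) and at 12 months (0.60, 6.2e-05).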

How the data were processed

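Hippocampal RNA pooled from 4 mice was hybridised on each of 6 Affymetrix MG430 2.0 chips, 2 per group. The deposited values are linear signal intensities, which the authors computed with GCOS and scaled to a target value of 600, so that depth is not defined and the number of chips limits the precision. From these, log2 signals were fitted with limma 3.58.1 (R 4.3.3; 3 group means, trend in the prior variance, 3 residual and 5.37 prior degrees of freedom), after leaving out 64 control probe sets and those with a group mean under 100 in all groups. P-values were adjusted over 23262 probe sets (Benjamini-Hochberg, 0.05). The fit was tested on simulated data. Tables were handled with Python 3.11.15 (pandas 2.3.3, matplotlib 3.10.9).

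Gene names came from the platform annotation, and the identifiers of all 122 probe sets matched RefSeq symbols. Signals are given for the 10 largest passing differences per direction and comparison whose chips did not overlap, for the brightest probe set of 12 core genes, and for all tested probe sets of genes with calls in both directions. The members, the further vesicle-cycle genes, the marker lists of 12 cell types and regions and the tests were chosen with earlier results of these data known. Alternatives were another offset, filters, quantile and median scaling, only the groups compared, a replicate block, no trend, the methods' t-test and each chip left out. A comparison across promoters used RefSeq windows of GRCm38.p6, from 250 bases before to 50 after a start.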

Additional observations from a re-analysis of the deposited data

How the results depend on the processing

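With captopril, the probe sets higher and lower were 25 and 18, and the methods' t-test after Benjamini-Hochberg adjustment gave 2 and 0 on linear and 0 and 0 on log2 signals (23 and 16 at an unadjusted p under 0.05 on either scale). The lower ones were 11 with each chip divided by its median and 9 without the trend. The median of -0.01 became 0.030 after quantile normalization and 0.023 with the chip median. At 12 against 18 months the t-test gave 6 and 5 on both scales, and the median became -0.067 after quantile normalization. For captopril against 12 months it gave 3 and 0 on linear and 0 and 0 on log2 signals (29 and 23, and 30 and 22, at an unadjusted p under 0.05), the lower ones were 14 after quantile normalization, and the median was 0.15 there and 0.053 without the filter on low signals. With the mean of all tested probe sets of a gene, 15 genes were higher with captopril, against 7, and 9 were lower than at 12 months, against 19. The cause of these shifts was not tested.

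Leaving out 1 chip in turn, the higher and lower counts ranged over 18 to 27 and 10 to 19 with captopril, 33 to 35 and 31 to 37 by age, and 32 to 38 and 19 to 32 for captopril against 12 months. The medians ranged over -0.0081 to 0.030, -0.0030 to 0.058 and 0.054 to 0.084, and the unequal pairs over 7 to 14, 14 to 24 and 0 to 22. Chips with the same replicate number did not deviate together (correlations -0.03, 0.03 and -0.05). The labels do not say whether chips of the same number were handled together, and these correlations cannot settle it. With the replicate block the counts were 25 and 17, 35 and 38, and 39 and 31, the unequal pairs were 11, 25 and 21, and Erc1 1451279_at with captopril no longer passed.

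Of the named probe sets' values under an alternative, 2003 kept direction and side of the threshold, 316 kept the direction but no longer passed, 18 came to pass and 24 changed sign. After quantile normalization the 12-month differences of Snap25 1416828_at, Cplx2 1455672_s_at, Dnm1 1460365_a_at, Syt11 1456464_x_at and Syt1 1433884_at were -0.060, -0.058, -0.077, -0.11 and -0.0082. Those of captopril against 12 months were 0.20 for Snap25 1416828_at, 0.075 for Dnm1 1460365_a_at, 0.17, 0.14 and 0.26 for Napb 1423173_at, 1423172_at and 1450888_at, 0.16 for Nsf 1422456_at, 0.14 for Syn2 1460230_at, 0.027, 0.0023 and 0.17 for Syt11 1456464_x_at, 1455176_a_at and 1429314_at, 0.24 for Vamp2 1420834_at and 0.28 for Syp 1448280_at. Differences near 0 that changed sign were Syp for captopril against 12 months (0.0091 with the chip median and -0.028 to 0.014 when 1 chip was left out), Rims1 1435667_at with captopril (-0.086 without Tg-18mo chip 2), Bsn 1436123_at with captopril (0.022 with the chip median and -0.022 to 0.0063 when 1 chip was left out) and Pclo 1419392_at against 12 months (-0.050 to 0.124 when 1 chip was left out). With 2 chips of pooled RNA per group, no difference between mice can be measured.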

Other observations

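Markers of other cells and regions were counted by the brightest probe set of each gene. Of all genes, 12.6% were higher and 21.7% lower with captopril, and 21.0% and 28.0% at 12 months. Of 10 interneuron markers, 8 were lower and 0 higher with captopril, with a summed signal of 43151 and 44198 for Tg-18mo, 37256 and 36978 for Tg-18mo-ACEI and 45389 and 44657 for Tg-12mo. Parvalbumin (Pvalb), a calcium-binding protein of fast-spiking interneurons, read 2674 and 2795, 2154 and 2464, and 2415 and 2390 in that order of groups. Of 9 choroid plexus markers, 8 were lower with captopril, with a median log2 difference of -2.50. At 12 months 1 was higher and 4 were lower than at 18 months, with a median of -0.10. Ttr, which carries thyroid hormone, was the exception in both, with log2 differences of 0.05 with captopril and 0.96 at 12 months. It read 17548 and 19806, 20358 and 18370, and 36598 and 36156. Of 7 markers of meninges and fibroblasts 5 were lower with captopril, and their summed signal was 8036 and 7912, 4254 and 4193, and 9839 and 9833.

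Among glial and vascular lists, 3 of 9 astrocyte markers were higher and 2 lower with captopril, 2 and 2 of 8 microglial markers, 0 and 3 of 7 oligodendrocyte markers, and 2 and 0 of 6 endothelial markers. These counts stand beside 12.6% higher and 21.7% lower of all genes. Of markers of neighbouring regions, 4 of 6 for cerebellar granule cells were higher and 1 lower, and 1 of 6 for striatum was higher and 3 lower. The summed signal of the cerebellar markers was nevertheless lower with captopril, at 4978 and 5424.5 against 6424 and 6670 for Tg-18mo. Of the 11 tested markers of hippocampal pyramidal and granule neurons, 3 were higher and 3 lower. The part of these differences in the results on the release genes was not tested.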
